A study of Mus musculus with 14 samples.

Results

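Transcripts of the adrenomedullin and calcitonin gene-related peptide receptor system were examined in single mesangial cells of the mouse glomerulus. The 9 genes were taken by name from a table of 35271 genes: the receptor Calcrl, its accessory proteins Ramp1, Ramp2 and Ramp3, the peptide genes Adm, Adm2 and Calca, the receptor component Crcp, and the scavenger receptor Ackr3. The set was proposed because Calcrl reached an RPKM of at least 10 in 12 of the 14 cells, so the level of Calcrl is a description here and was not tested. All 14 cells belong to a single group, labelled mesangial cells from kidney glomeruli of a wild type male mouse aged 8 weeks, with no treatment named. The strain is spelled C56BL/6 in the sample labels and C57BL/6 in the design text. Glomeruli were taken with magnetic beads, digested with enzymes, and the freed cells went onto a Fluidigm C1, an instrument that traps cells in chambers and makes cDNA from each. With 1 mouse there is no biological replicate, so no p-value was computed and every spread is between cells.

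CALCRL is a class B G protein-coupled receptor that needs a receptor activity-modifying protein (RAMP) to reach the cell surface and to bind its peptides. With RAMP1 it forms the receptor for calcitonin gene-related peptide, and with RAMP2 or RAMP3 it forms the adrenomedullin receptors. These receptors signal mainly through the stimulatory G protein to adenylyl cyclase and cyclic AMP, and adrenomedullin is known as a vasodilator peptide that raises cyclic AMP in cultured mesangial cells of the rat. In most organs the blood vessel endothelium is a main site of Calcrl, Ramp2 and Ramp3.

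Levels are in RPKM as deposited, meaning that the reads of a gene are divided by its length in kilobases and by the total of the cell. Below, detected means an RPKM of 1 or more, and high means 10 or more. Read totals recovered from the steps of the values were 6.60 M to 23.8 M per cell, and 1770 to 5277 genes were detected per cell. Of 9 mesangial marker genes, 6 to 8 were high in each cell, with a summed RPKM of 6981 to 23018, and Tbx18 was listed at 0 in all 14. Certain cells also carried transcripts of other glomerular cell types. Of 13 endothelial markers, 10 were high in GL_M_30 and 0 to 5 in the other cells. Of 9 podocyte markers, 5 were high in GL_M_55 and 0 to 2 in the other cells.

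Calcrl was the widespread gene of the set, while its RAMP partners were mostly listed at 0. Of the 9 genes, 5 were high in at least 1 cell (Calcrl, Ramp2, Ramp3, Adm and Crcp), beside 22.3% of all genes in the table. Ramp1 and Ackr3 were above 0 only at trace level in GL_M_30, and Adm2 and Calca were listed at 0 in every cell. Of the 9 genes, Calcrl alone was high in 12 or more cells, beside 0.663% of all genes and 2.27% of the 10300 genes detected in some cell. Since Calcrl was chosen by this count, nothing is read from that comparison.

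**Figure D1:**
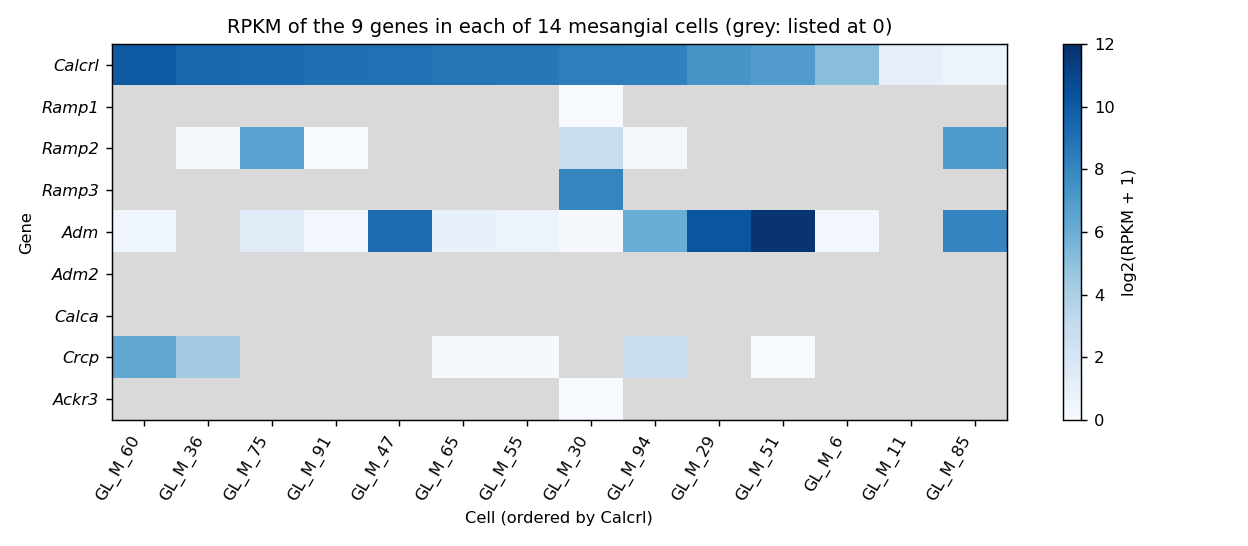
Level of the 9 genes (rows) in the 14 cells (columns, ordered by Calcrl) as log2(RPKM + 1), with grey for values listed at 0. The Calcrl row is dark in 12 cells, whereas the 3 Ramp rows are mostly grey and the Adm row is dark in 5 cells.

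Promoter sequence is shown for the widespread gene Calcrl, for Adm, which was high in some cells and near 0 in others, and for Ramp3, which was high in a single cell. The RefSeq promoter table held 7 of the 9 genes, with no entry for Ramp2 and Crcp. The stretches are on GRCm38.p6, 5′ to 3′ on the gene's own strand, and stop before the earliest start of the gene in RefSeq or GENCODE. Capitals mark matches to the motifs given after the sequences.
Calcrl, chr2:84425412-84425516, minus strand: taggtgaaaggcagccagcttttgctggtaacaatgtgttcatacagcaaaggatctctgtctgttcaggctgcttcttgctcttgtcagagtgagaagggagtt
Adm, chr7:110627407-110627656, plus strand: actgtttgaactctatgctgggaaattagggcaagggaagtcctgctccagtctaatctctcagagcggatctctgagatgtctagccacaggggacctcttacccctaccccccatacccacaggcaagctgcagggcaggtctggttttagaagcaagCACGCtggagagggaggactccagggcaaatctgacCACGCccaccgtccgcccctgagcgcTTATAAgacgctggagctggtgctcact
Ramp3, chr11:6658283-6658520, plus strand: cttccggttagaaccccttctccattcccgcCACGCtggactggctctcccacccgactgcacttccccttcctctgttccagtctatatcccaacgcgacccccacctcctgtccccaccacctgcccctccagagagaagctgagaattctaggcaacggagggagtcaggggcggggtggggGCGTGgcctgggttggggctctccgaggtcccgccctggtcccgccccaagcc

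Both strands were searched for TATAA (the core of the TATA box), GATAA (the core bound by GATA factors) and ACGTG or GCGTG (the core of the hypoxia response element). Adm held TATAA on both strands in overlap, 27 and 28 bases before the RefSeq start, and 22.8% of the 32851 promoters hold it in a window of that length. It also held the hypoxia core at 90 and 54 bases before the start, as do 38.6% of promoters at least once. Ramp3 held that core at 219 and 65 bases, beside 37.1% of promoters in its shorter window. The 105 bases of Calcrl held 0 matches to any of the 3 motifs, which 11.3%, 11.6% and 16.8% of promoters contain in the same window. CpG pairs numbered 0 in the Calcrl stretch, 7 in that of Adm and 12 in that of Ramp3, against medians of 2, 6 and 5 over all promoters in those windows. A match describes letters only.

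Calcrl (ENSMUSG00000059588, chromosome 2 from 84330626 to 84425411, minus strand of GRCm38, protein-coding) ran from an RPKM of 0.501 to 1013. From low to high its RPKM was 0.501 in GL_M_85, 0.958 in GL_M_11, 34.5 in GL_M_6, 118 in GL_M_51, 153 in GL_M_29, 305 in GL_M_94 and 333 in GL_M_30. It continued at 418 in GL_M_55, 458 in GL_M_65, 522 in GL_M_47, 536 in GL_M_91, 627 in GL_M_75, 717 in GL_M_36 and 1013 in GL_M_60. The cells thus fell into 12 with high Calcrl and 2 with hardly any, and no value lay between 0.958 and 34.5. Neighbours in this order have no replicate that could tell them apart.

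The mean log2(RPKM + 1) of Calcrl was 7.28 ± 3.02 over all cells (SD, n = 14 cells of 1 mouse) and 8.36 ± 1.34 over the 12 high cells, which spanned 29.4-fold. A share of 12 of 14 cells is 85.7%, with an exact Clopper-Pearson 95% interval of 57.2% to 98.2% that covers the sampling of cells from this mouse only. By median RPKM, 375, Calcrl ranked at 99 among the 234 genes that were high in 12 or more cells. Of those genes 89 were high in exactly 12 cells, and another 102 genes were high in exactly 11. Exons of Calcrl overlap no other annotated gene, and 0.325% of its 50-base words occur in transcripts of other genes.

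The 2 cells low in Calcrl had values above 0. With the GENCODE M21 exon length, the value in GL_M_11 equals about 38 reads and that in GL_M_85 about 25 reads, above a floor of 3 reads. They amount to 0.0945% and 0.0494% of the level in GL_M_60. Values of that relative size were common in the table: at 1027 genes with an RPKM of at least 100 in 1 cell and below 10 elsewhere, 31.1% of the other values were above 0, and their median was 0.0631% of the level in the high cell (quartiles 0.0243% and 0.256%). Whether such values belong to the cell was not tested. GL_M_11 had 2846 genes detected and 7 of 9 mesangial markers high, and GL_M_85 had 2788 genes and 8 markers, both inside the range of the other cells. The labels name no molecular identifiers, so reads may be copies of the same molecule, and intervals and floors cover counting error only.

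The RAMP genes were high in 3 cells, Ramp2 in 2 of them and Ramp3 in the other. Ramp2 (ENSMUSG00000001240, chromosome 11 from 101246028 to 101259546, plus strand), whose product directs CALCRL to adrenomedullin, had an RPKM of 127 in GL_M_85, 99.8 in GL_M_75 and 5.78 in GL_M_30. It was at 0.150 in GL_M_94, 0.0857 in GL_M_36 and 0.0648 in GL_M_91, and was listed at 0 in the other 8 cells. With the GENCODE M21 exon length each of these low values came to the same 3.79 reads, which is not whole. The length the authors used for Ramp2 may thus be shorter, and the true counts lower than 3.79. Ramp3 (ENSMUSG00000041046, chromosome 11 from 6658521 to 6677475, plus strand), the partner in the other adrenomedullin receptor, was at 266 in GL_M_30, about 4677 reads, and listed at 0 in the other 13 cells. Ramp1 (ENSMUSG00000034353, chromosome 1 from 91179822 to 91225196, plus strand), the partner in the receptor for calcitonin gene-related peptide, was at 0.0606 in GL_M_30, about 2 reads, and listed at 0 elsewhere.

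Calcrl and a RAMP were high together in 2 of the 12 cells with high Calcrl, 16.7% of them (Clopper-Pearson 95% interval 2.09% to 48.4%). In GL_M_30 the RAMP genes summed to 272 against 333 for Calcrl, on a per-length scale. In GL_M_75 Ramp2 stood at 99.8 beside a Calcrl of 627. In GL_M_85 the order was the opposite, since this cell had the highest Ramp2 of the 14 and the lowest Calcrl. The remaining 10 cells with high Calcrl, from 34.5 to 1013, had a RAMP sum of at most 0.150, and in 7 of them all 3 RAMP genes were listed at 0. Lowering the limit to an RPKM of 1 left the count at 2 of 12. Counting any value above 0 gave 6 of 14 cells, 42.9%.

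The depth sets how low a RAMP level could have been seen. A floor of 3 reads was set with GENCODE M21 exon lengths. By cell it corresponds to an RPKM of 0.0417 to 0.150 for Ramp1, 0.0382 to 0.138 for Ramp2 and 0.0913 to 0.329 for Ramp3. If the authors used a shorter length for Ramp2, its floor was higher. A RAMP transcript lost while the cDNA was made would also be listed at 0, and such loss was not tested. Gnas was also listed at 0 in 10 cells, and why was not tested. Its level is uncertain, since 18.6% of its 50-base words occur in transcripts of other genes. In GENCODE M21, 33.4% of the exon bases of Ramp2 overlap Vps25, but 0% of the exon bases of its protein-coding transcripts do. Of the 50-base words of Ramp2, 30.7% occur in transcripts of other genes, so its level is uncertain too. For Ramp3 8.19% of the coding transcripts' exon bases overlap Gm11978 on the other strand, and for Ramp1 0%. Which annotation and strand setting the authors used is not stated in the labels or notes.

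Endothelial transcripts were found in cells with and without a high RAMP, and their part in the RAMP values was not tested. GL_M_30 had the highest summed endothelial level of the 14 cells, an RPKM of 4128. Its values included Egfl7 at 1199, Emcn at 1635, Kdr at 127 and Cdh5 at 12.7. Of the other markers, Esam was listed at 0 and Sox17 was at 0.0338 in GL_M_30, and Pecam1 did not exceed 1.87 in any cell. GL_M_75 summed to 1012, with Emcn at 733, Plvap at 112 and Kdr at 34.0, and GL_M_85 to 603, with Plvap at 299 and Flt1 at 13.2. Cdh5 was listed at 0 in all 13 cells other than GL_M_30, and Egfl7 did not exceed 0.370 in them. Of the 13 markers, 4 were high in GL_M_75 and 5 in GL_M_85, and 5 were also high in GL_M_29 and in GL_M_36. The summed level ranged from 8.34 to 4128 over all cells with a median of 899, so GL_M_85 lay below the median. In 4 cells without a high RAMP the sum exceeded that of GL_M_75, at 2075 in GL_M_47, 1387 in GL_M_29, 1059 in GL_M_94 and 1046 in GL_M_91. Part of these sums was Eng, at 636, 928, 804 and 142 in the same order, which was high in 11 of the 14 cells. Ehd3 was also high in 11 cells and Plvap in 8. Esam was at 1272 in GL_M_47. Kdr was high only in GL_M_30 and GL_M_75, and Flt1 only in GL_M_30, at 70.6, and in GL_M_85. Emcn was at 902 in GL_M_91, and the highest Plvap was 367 in GL_M_36, both without a high RAMP. Without GL_M_30, Calcrl and a RAMP were high together in 1 of 11 cells, 9.09%. Without GL_M_30, GL_M_51 and GL_M_55 the count was 1 of 9, 11.1%, and Calcrl was high in 9 of 11 cells, 81.8%.

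**Figure D2:**
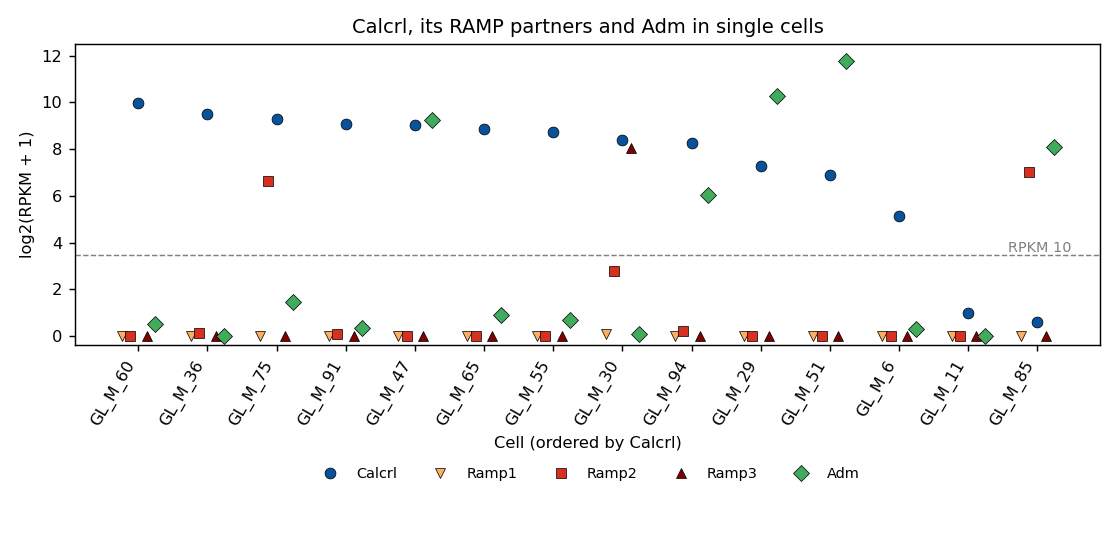
Level of Calcrl, the 3 RAMP genes and Adm in each cell as log2(RPKM + 1), with cells ordered by Calcrl and a dashed line at an RPKM of 10. A RAMP lies above the line in GL_M_75, GL_M_30 and GL_M_85, and Calcrl lies above it in 12 cells.

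**Figure D3:**
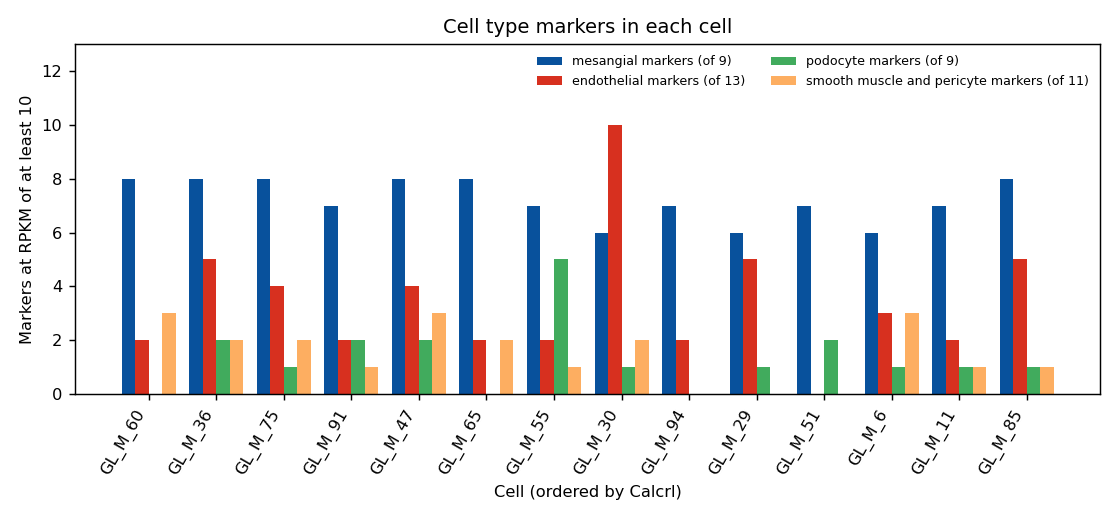
Number of markers of each cell type at an RPKM of at least 10 in each cell, with cells ordered by Calcrl. The mesangial count is 6 to 8 in every cell, and the endothelial count reaches 10 in GL_M_30.

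Adm was the single peptide gene with high values, and these were confined to 5 cells. Adm (ENSMUSG00000030790, chromosome 7 from 110627661 to 110629820, plus strand) encodes the precursor of adrenomedullin. Its RPKM was 3496 in GL_M_51, 1245 in GL_M_29, 605 in GL_M_47, 271 in GL_M_85 and 64.4 in GL_M_94. In the remaining cells it was 1.73 in GL_M_75, 0.885 in GL_M_65, 0.628 in GL_M_55, 0.440 in GL_M_60, 0.269 in GL_M_91, 0.236 in GL_M_6 and 0.0749 in GL_M_30, and it was listed at 0 in GL_M_11 and GL_M_36. The high values lay at least 37.1-fold above the highest of the others. The share of cells with high Adm was 35.7% (Clopper-Pearson 95% interval 12.8% to 64.9%).

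High Adm was found beside high and low Calcrl alike. Of the 5 cells with high Adm, 4 had high Calcrl, at 118 to 522, and GL_M_85 had the lowest Calcrl. None of the cells had Calcrl, a RAMP and Adm high at once (0 of 14). A limit of 3 counts allows a share of up to 21.4%, and the exact Clopper-Pearson 95% interval reaches 23.2%. Lowering the limit to an RPKM of 1 gave 1 such cell, and counting any value above 0 gave 5. Over the 14 cells Spearman's rho between Adm and Calcrl was -0.20 and Pearson's r of the log2 values -0.17, and rho was -0.34 without GL_M_85 and GL_M_11, the 2 cells farthest from the median of Calcrl. The values are sparse, and the correlation is given as a description only. No 50-base word of Adm occurs in transcripts of other genes (0%).

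The other peptides of the family were not detected. Adm2 (chromosome 15 from 89322720 to 89324731), which encodes the related peptide intermedin, and Calca (chromosome 7 from 114631478 to 114636357), which encodes calcitonin and calcitonin gene-related peptide by alternative splicing, were listed at 0 in all 14 cells. Iapp, the amylin gene, was also at 0 throughout. Calcb, the gene of the second calcitonin gene-related peptide, had about 2 reads in GL_M_30 and in GL_M_51, with an RPKM of 0.115 and 0.0767. At these depths 3 reads equal an RPKM of 0.0970 to 0.350 for Adm2 and 0.0748 to 0.270 for Calca.

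Crcp (ENSMUSG00000025532, chromosome 5 from 130029290 to 130060789, plus strand) encodes a protein known both as a coupling factor of CALCRL and as a subunit of RNA polymerase III. It was at an RPKM of 80.0 in GL_M_60, the cell with the highest Calcrl, at 18.8 in GL_M_36, the cell with the next highest, and at 5.43 in GL_M_94. It was at 0.122 in GL_M_55, 0.107 in GL_M_65 and 0.0486 in GL_M_51, about 1 read each. The other 8 cells had it listed at 0, among them GL_M_75, GL_M_91 and GL_M_47, which come next by Calcrl. Ackr3 (ENSMUSG00000044337, chromosome 1 from 90203980 to 90216751, plus strand) encodes a scavenger receptor for the chemokine CXCL12 that also takes up adrenomedullin. It was at 0.0453 in GL_M_30, about 2 reads, and listed at 0 in the other 13 cells. Of the CXCL12 axis, Cxcl12 was at 14.4 in GL_M_30 and at 0 elsewhere, Cxcr4 was at 0 in every cell and Cxcl11 reached 0.0555 in GL_M_36.

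Among 15 class B receptors, Calcrl was the only member high in 7 or more cells and ranked first by median and by mean log2 level. Pth1r, the parathyroid hormone receptor, was high in 3 cells, with an RPKM of 177 in GL_M_6, 143 in GL_M_47 and 54.9 in GL_M_65, and its median was 0. The other 13 were below 1 in every cell, 9 of them at 0 throughout, among them the calcitonin receptor gene Calcr, the glucagon receptor gene Gcgr and the secretin receptor gene Sctr. Adcyap1r1, Vipr1, Vipr2 and Glp2r did not exceed 0.122. Of 8 other vasodilator receptors that couple to the same G protein, 0 were high in 7 or more cells, beside 3.08% of all genes, so neither this count nor the 1 of 15 sets these receptors apart. Ptger4, a prostaglandin E2 receptor, was high in 4 cells and reached 448 in GL_M_91, Ptger2 was at 292 in GL_M_65 and Ptgir, the prostacyclin receptor, at 32.9 in GL_M_36.

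The signalling machinery was present in part. Examined were 5 lists covering peptide processing, the G protein with adenylyl cyclases, cyclic AMP effectors, phosphodiesterases, and receptor desensitisation and sorting. Of their 42 genes, 5 (11.9%) were high in 7 or more cells, beside 3.08% of all genes. Of the 42 genes 26 were detected in some cell, 61.9%, beside 29.2% of all genes. The 5 high genes all belong to these 26. Over the genes of the table detected in some cell, 10.5% were high in 7 or more cells. The median gene of the lists was high in 1 cell, against 0 cells for all genes of the table. The lists were chosen with earlier results of these data known, so the counts are descriptive.

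**Figure D4:**
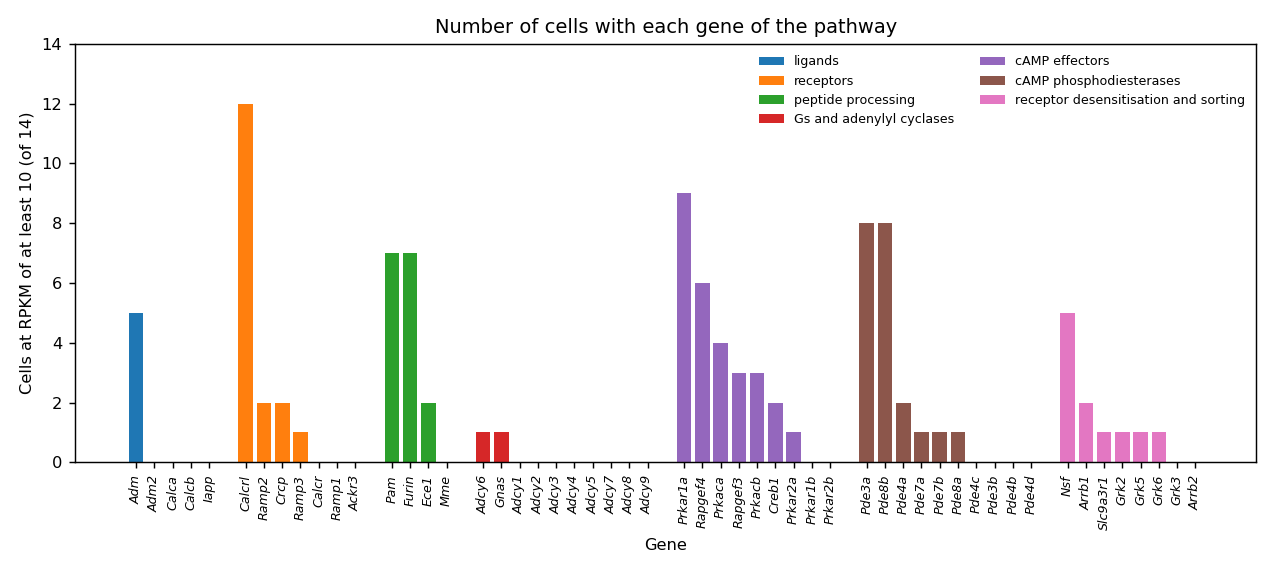
Number of cells at an RPKM of at least 10 (y axis, of 14) for genes of 7 lists, which are the peptides, the receptors and the 5 signalling lists. Calcrl has the tallest bar at 12 cells, followed by Prkar1a at 9 and by Pde3a and Pde8b at 8 each, and adenylyl cyclases other than Adcy6 have no bar.

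Genes for cyclic AMP synthesis were mostly listed at 0 or below 1, and whether such values reflect low expression or transcripts missed in single cells was not tested. Gnas, which encodes the stimulatory G protein alpha subunit, was at an RPKM of 93.5 in GL_M_6, at 0.380 in GL_M_85, 0.0606 in GL_M_11 and 0.0256 in GL_M_51, and listed at 0 in the other 10 cells. In GENCODE M21 its exons overlap Gm20721 and Nespas on the other strand, and 18.6% of its 50-base words occur in transcripts of other genes, so its level is uncertain. Of 9 adenylyl cyclase genes, Adcy6 was at 88.2 in GL_M_55 and 8.83 in GL_M_65 and below 0.5 elsewhere. The other 8 stayed below 1 in every cell, with Adcy1 and Adcy2 at 0 throughout.

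Cyclic AMP effectors were found in more cells. Prkar1a, a regulatory subunit of protein kinase A, was high in 9 cells with a median RPKM of 23.8 over all cells and 2755 in GL_M_91, and was at 0 in GL_M_11. Rapgef4 (EPAC2), an exchange factor activated by cyclic AMP, was above 0 in all 14 cells and high in 6, with 714 in GL_M_94 and 536 in GL_M_65, but 27.9 to 41.6 in the other 4 high cells. Its relative Rapgef3 (EPAC1) was high in 3 cells, at 951 in GL_M_65, 752 in GL_M_51 and 22.0 in GL_M_47. The catalytic subunit genes Prkaca and Prkacb were high in 4 and 3 cells, up to 128 and 34.0. Creb1, the transcription factor phosphorylated by protein kinase A, was high in GL_M_36 at 62.5 and in GL_M_60 at 40.1.

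Of 10 phosphodiesterase genes whose products break down cyclic AMP, Pde3a and Pde8b were high in 8 cells each. Pde8b reached an RPKM of 1322 in GL_M_55, had a median of 83.9 over the 14 cells and was at 0 in GL_M_30. Pde3a reached 270 in GL_M_85, with a median of 18.3, and was at 0 in GL_M_51. The next, Pde4a, was high in 2 cells at up to 17.6, and Pde7a, Pde7b and Pde8a in 1 cell each. Pde4c never exceeded 3.14 but was above 0 in all 14 cells, and Pde3b, Pde4b and Pde4d stayed below 1.

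Peptide processing and receptor desensitisation genes were uneven. Pam, the enzyme that adds the C-terminal amide required for active adrenomedullin, was high in 7 cells and reached 196 in GL_M_47. Of the 5 cells with high Adm, Pam was at 196 in GL_M_47, 38.1 in GL_M_94, 13.2 in GL_M_51, 5.15 in GL_M_29 and 0.965 in GL_M_85. Furin, a proprotein convertase, was high in 7 cells at up to 89.8. Mme, the peptide-degrading enzyme neprilysin, stayed at or below 0.0352. Of 8 desensitisation and sorting genes, 0 were high in 7 or more cells, a count that a share of 3.08% over all genes does not set apart. Nsf, a sorting ATPase, was high in 5 cells at up to 670, Arrb1 (beta-arrestin 1) in 2 at up to 39.8, Grk2 in GL_M_60 at 133, and Arrb2 stayed below 1.

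Genes with a pattern like that of Calcrl were sought by Spearman's rho over the 14 cells among 1804 genes that averaged an RPKM of 10 or more and were detected in 7 or more cells. Among the 5 highest were Trim44, a tripartite motif protein, at 0.80, the mitochondrial import subunit Timm17a at 0.77, the poly(A) polymerase Papolg at 0.75 and Frg1 at 0.75. The lowest were the mitochondrially encoded mt-Nd4 at -0.71, Plau (urokinase) at -0.66, the kinase Gsk3b at -0.64, Cyb5b at -0.64 and Myo1c at -0.63. The rho of all 1804 genes had a median of 0.05, with 5th and 95th percentiles of -0.38 and 0.49. The cells share a mouse and differ in depth, and rho of Calcrl was 0.27 with the read total and 0.13 with the number of genes detected.

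These likenesses depended on how they were measured. Trim44 was high in 3 cells only, GL_M_60 at 92.0 being its highest, and its Pearson's r with Calcrl on log2 values was 0.51. Of the 5 highest genes by rho, 0 were among the 5 highest by Pearson's r, and 0 when GL_M_85 and GL_M_11 were left out. mt-Nd4 was high in all 14 cells, between 285 in GL_M_55 and 1196 in GL_M_85, and its rho fell in size to -0.55 without those 2 cells. Its level is uncertain, since 62.2% of its 50-base words occur in transcripts of other genes. Against mesangial markers, rho of Calcrl was 0.53 with Itga8, 0.26 with Pdgfrb and 0.07 with Gata3. Without GL_M_85 and GL_M_11 rho with Itga8 was 0.35, and Pearson's r over all cells was 0.40 with Itga8 and -0.0079 with Pdgfrb.

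**Figure D5:**
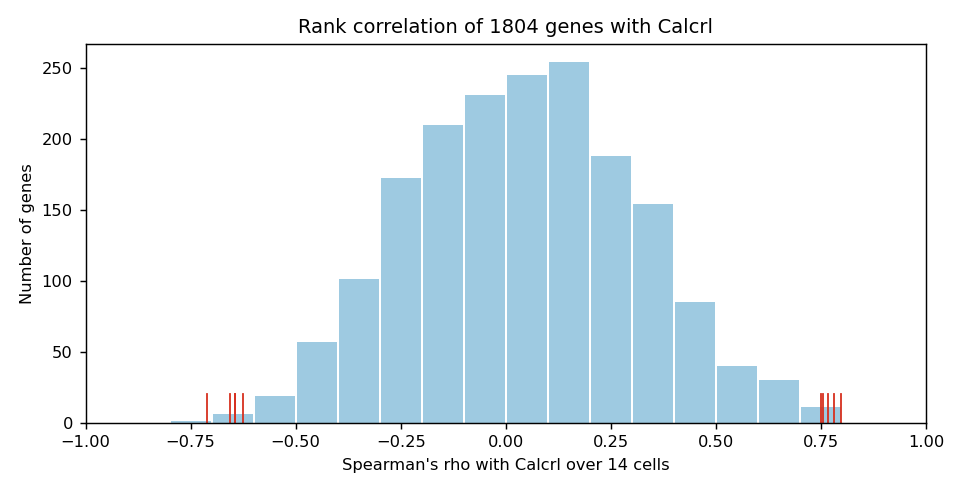
Distribution of Spearman's rho with Calcrl over 14 cells for 1804 genes (x axis, bins of 0.1, with the number of genes on the y axis). Red lines mark the 5 highest and the 5 lowest genes, from 0.75 to 0.80 and from -0.71 to -0.63, at the ends of a distribution centred near 0.05.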

How the data were processed

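The RPKM values were made and deposited by the authors for 14 single cells. Per the submitters' processing notes, TopHat2 2.0.12 and HTSeq 0.6.1 were used with mm10. Annotation and strand setting: not given in the sources used here. All 14 value columns matched a cell title, and 34488 of 35271 gene IDs matched a GENCODE M21 symbol. Levels are log2(RPKM + 1). Read totals were recovered as the step at which RPKM times exon length gave whole reads at genes with 1 transcript. At values below 50 reads, 84.7% to 89.7% lay no more than 0.02 reads from whole. Reads per gene use GENCODE M21 exon lengths and are approximate, and where the authors used a shorter gene length the true counts are lower. The scripts were tested on simulated data. No pair of cells had identical values. Python 3.11.15, pandas 2.3.3, numpy 2.4.6 and scipy 1.17.1 were used. Named are all 9 genes, list members high in 7 or more cells or the highest of a list without any, class B receptors found in some cell, and the 5 highest and 5 lowest genes by rho. Some genes that these rules would name are not reported here. Further list members and markers were named after their values were seen. The 9 genes and all lists were chosen with earlier results of these data known. Alternatives were other limits, RPKM rescaled to TPM, another pseudocount, other filters and left-out cells.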

Additional observations from a re-analysis of the deposited data

How the results depend on the processing

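Limits were 1.5 times for counts and shares, 1 SD for levels and 0.1 for rho. Of 228 alternative values, 202 stayed within these limits and 26 moved. A change of sign was seen in 0, and counts and shares cannot show one. Most alternatives were rho values with 1 cell left out, which share nearly all cells, so the tally says little. With Pearson's r in place of rho all 5 highest genes moved, and of the 5 lowest all but mt-Nd4 and Cyb5b. The share of cells with Calcrl at an RPKM of at least 1 and at least 10 and its rank among class B receptors were among the values that stayed. The share of Calcrl cells with a RAMP was 16.7%, but 42.9% for any value above 0, 9.09% without GL_M_30 and 11.1% without GL_M_30, GL_M_51 and GL_M_55, the last chosen after seeing the data. The count of 5 signalling genes was 8 at an RPKM of at least 1 and 9 for 4 or more cells. For Trim44 rho was 0.75 to 0.88 when 1 cell was left out and Pearson's r was 0.51. With detection in 4 or more cells the highest gene was Ift43 at 0.86. The causes were not tested. No paired analysis was possible because there is a single group. Zeros below the 3-read floor limit what can be said of Ramp1, Ramp3, Adm2, Calca and Ackr3.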
